A study of Mus musculus with 79 samples.

Results

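The genes described here are the Wnt ligands, their Frizzled and LRP receptors, the secreted antagonists of the pathway and its β-catenin, Axin and TCF/LEF components, 49 genes of the 25899 gene symbols in the deposited table. They were taken by symbol: every Wnt, Fzd, Dkk and Sfrp gene followed by its number, with Dkkl1, Frzb, Wif1, Lrp5, Lrp6, Axin1, Axin2, Ctnnb1, Lef1, Tcf7, Tcf7l1 and Tcf7l2. They comprise 19 Wnt ligands, 10 Frizzled receptors, 2 LRP co-receptors, 5 Dickkopf-family genes, 6 other secreted Wnt binders, 3 β-catenin and Axin genes and 4 TCF/LEF factors.

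The libraries hold ribosome-bound mRNA from mouse brain, obtained by translating ribosome affinity purification (bacTRAP). All mice were heterozygous for a bacterial artificial chromosome transgene on a C57BL/6J background. In it, the promoter of the dopamine D1a or D2 receptor gene drives the ribosomal protein L10a carrying enhanced green fluorescent protein, so that ribosomes of promoter-active cells can be pulled down from tissue with their mRNA. The 79 libraries, each a pool of 3 mice, form 5 groups. From the D1 line there are 15 of dorsal striatum, 15 of ventral striatum (the nucleus accumbens) and 19 of prefrontal cortex, and from the D2 line 16 of dorsal and 14 of ventral striatum. There is no D2 cortical group. The transgene marks every cell type that uses the promoter in a region, and a pull-down also carries some mRNA from unlabelled cells. In such bulk samples, fewer cells of a type and less RNA per cell cannot be told apart. Values are CPM, read counts scaled to a common library total, and 1 read was worth 0.0124 to 0.0466 CPM.

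Wnt proteins are secreted lipid-modified ligands that bind Frizzled receptors, and in the β-catenin branch also the LRP5 or LRP6 co-receptor. Receptor activation disables the complex, built on Axin, that marks β-catenin for destruction. β-Catenin then enters the nucleus and activates transcription with TCF/LEF factors, and Axin2 is a widely used target of this step. Some Dickkopf proteins act at LRP5 and LRP6, which is not implied here for Dkk3 or Dkkl1. The SFRP proteins, Frzb and Wif1 bind Wnts outside the cell. In the brain the pathway is known for patterning the embryo, and later for axon guidance, vessel growth and synapse formation.

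The receptor transcripts followed the labels. Drd1a, the D1 receptor gene, averaged 225 and 157 CPM in D1 dorsal and ventral striatum against 15.2 and 16.8 CPM in the D2 groups, and Drd2 averaged 1146 and 656 CPM in D2 dorsal and ventral striatum against 6.30 and 8.97 CPM in the D1 groups. In D1 prefrontal cortex Drd1a averaged 18.8 CPM, near the D2 striatal groups, and Drd2 1.08 CPM. The summed level of 5 striatal projection neuron markers lay between 1319 and 3902 CPM in all striatal libraries and between 70.9 and 380 CPM in cortex. The summed level of 4 cortical glutamatergic markers (Slc17a7, Neurod6, Neurod2 and Tbr1) was 448 to 772 CPM in cortex. It was also higher in the D1 than in the D2 striatal libraries: 23.9 to 107 CPM in D1 dorsal and 13.7 to 92.1 CPM in D1 ventral striatum, against 0.928 to 27.9 and 2.79 to 66.4 CPM in the D2 groups. No defining marker of this list was at 0 in a whole group. The libraries called here those that stand apart are the 16 in which the summed markers of cortical neurons (in striatum), striatal projection neurons (in cortex) or choroid plexus and ependyma exceeded 2.5 times their group median: 5 D1 and 5 D2 dorsal libraries and 1 cortical library for choroid plexus and ependyma, 2 D2 striatal libraries for cortical neurons and 3 cortical libraries for striatal projection neurons. On the lists not used for this choice, 22 further libraries exceeded that fold, 17 of them for endothelial and mural markers. Summed choroid plexus and ependyma markers reached 41.7 CPM dorsally and at most 5.97 CPM ventrally. Summed interneuron markers were 87.2 to 245 CPM in cortex and at most 57.7 CPM in striatum, and summed astrocyte markers 9.4 to 55.4 CPM and at most 15.9 CPM. Summed oligodendrocyte markers had medians of 110 and 80.5 CPM in D2 dorsal and ventral striatum against 73.5 and 46.7 CPM in D1. The part of these cells in the differences given here was not tested.

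Of the 49 genes, 23 reached a mean of 1 CPM in at least 1 group. The other 26 stayed below it, and Wnt8a had no read in any of the 79 libraries. A count of 0 in 1 library leaves room for up to 3 expected reads there. No read in all 79 leaves room for up to 3 in their sum. Among the sparse genes, Wnt3a had a read in 3 libraries, Dkk1 and Wnt11 in 2 each and Dkk4 in 1. Wnt2b, at 0.575 to 0.847 CPM on average, and Wnt1, at 0.309 to 0.672 CPM, had reads in 79 and 77 libraries.

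**Figure D1:**
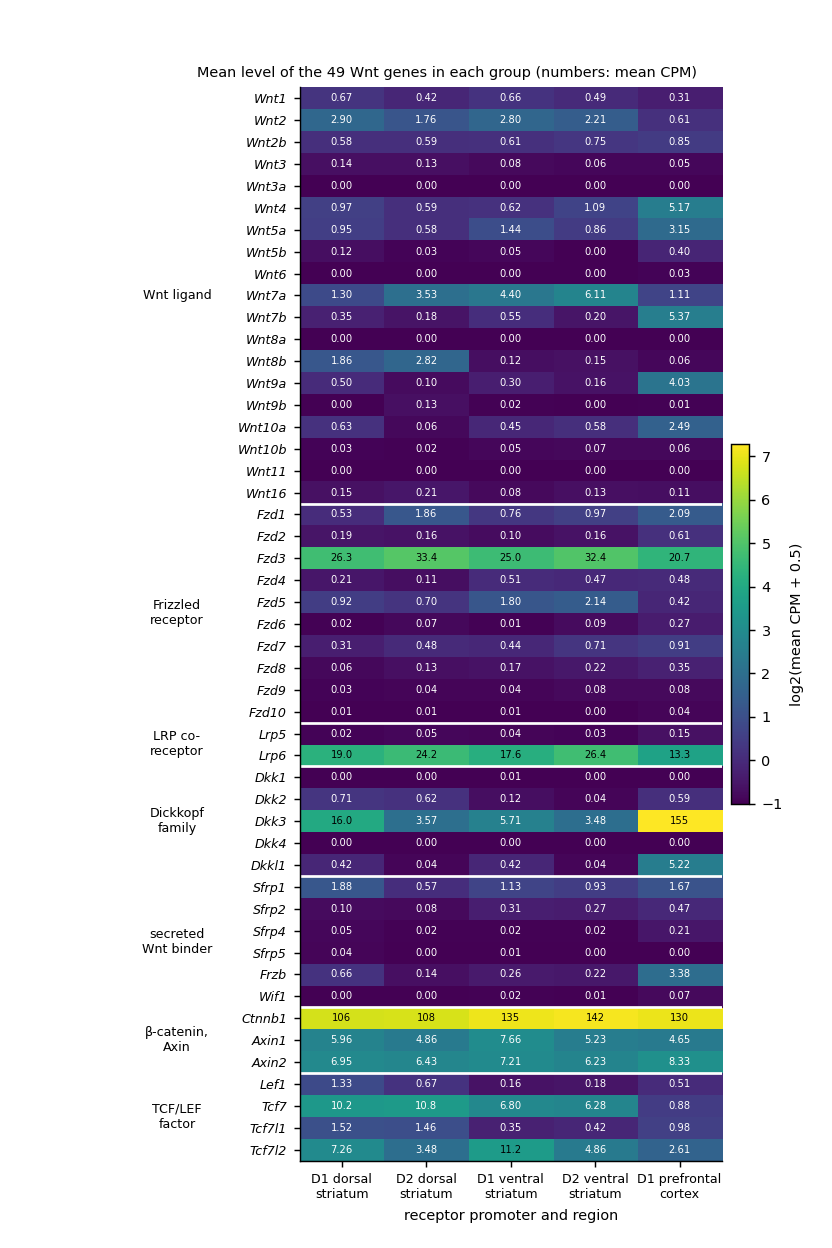
Mean CPM of the 49 genes (rows, grouped by role) in the 5 groups (columns), with colour showing log2(mean CPM + 0.5) and the printed number the mean. Ctnnb1 exceeds 100 CPM in all groups, Dkk3 does so in prefrontal cortex only, and 26 genes stay under 1 CPM in every group.

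Comparisons between groups used limma on log2(CPM + 0.5) with Benjamini-Hochberg adjustment over all genes tested, and a gene is called at an adjusted p under 0.05. A gene was tested where it reached 1 CPM in as many libraries as the smaller group holds, so a member tested mainly through its high group had to differ. For such members, among them Wnt8b by region in D2 and Wnt7b, Wnt9a and Dkkl1 in cortex, the p-value adds no support. Counts of called members are therefore read only against the share of all tested genes. Differences are given as log2 ± SE on that scale, which understates changes of low genes, and folds are ratios of mean CPM. Library names carry 1 of 4 letter codes, a possible batch: EM in 53 libraries, OdP in 14 (8 D2 dorsal, 5 D2 ventral and 1 D1 ventral), BdP in 9 and JAG in 3. Differences within EM are given beside a result mainly where they change its call. D1 and D2 dorsal striatum share only the code EM. There a fit with the code as a covariate gives the same difference as EM alone and is no separate check.

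In D1 against D2 dorsal striatum 5 of 12 tested members were called (2 higher in D1, 3 lower), where 25.9% of 11090 tested genes were called (12.8% higher and 13% lower). Wnt2 and Dkk3 were higher, Wnt7a, Fzd3 and Lrp6 lower. Within EM only Dkk3 and Wnt7a of these 5 remained called. In ventral striatum 6 of 12 were called (Wnt5a, Dkk3, Axin1 and Tcf7l2 higher in D1, Wnt7a and Lrp6 lower), where 47.7% of 11410 genes were (24.1% higher, 23.6% lower); a share near the background says nothing about the members. With the percentage of reads in genes as a covariate, 1218 genes were called there instead of 5443. Scaling to reads in genes moved the split there from 2751 higher and 2692 lower genes to 3702 and 1885.

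In dorsal against ventral D1 libraries 8 of 13 members were called (Dkk3 and Tcf7 higher dorsally, Wnt5a, Wnt7a, Fzd5, Ctnnb1, Axin1 and Tcf7l2 lower), where 34.6% of 11332 genes were (10.1% higher, 24.5% lower). In D2 libraries 6 of 13 were (Wnt8b, Fzd1 and Tcf7 higher, Wnt7a, Fzd5 and Ctnnb1 lower), where 28.5% of 11187 genes were (7.93% higher, 20.6% lower). Scaling moved the split of all genes here: 1144 higher and 2774 lower in D1 became 1663 and 1642 with median-ratio scaling, and 887 and 2302 in D2 became 1398 and 1336. Wnt7a, Fzd5 and Tcf7 kept their calls in both receptors under that scaling. In cortex 15 of 20 members were called against D1 dorsal striatum (10 higher, 5 lower) where 54.8% of 11654 genes were (32.3% and 22.5%), and 18 of 20 against D1 ventral striatum (10 higher, 8 lower) where 62.8% of 11749 genes were (27.7% and 35.1%). These 2 comparisons share their cortical libraries. The interaction of receptor and region was called for 3 of 17 tested members, where 2.64% of 11873 genes were called (1.93% positive, 0.707% negative). They were Dkk3, Fzd1 and Wnt4, the last at 0.91 ± 0.26 (limma adjusted p = 0.0368), with D1 minus D2 values of 0.42 dorsally and -0.49 ventrally; its call was lost in 15 of 60 fits without 1 library, with no minimum (adjusted p = 0.0528), on scaling to reads in genes (adjusted p = 0.0641) and in edgeR (adjusted p = 0.0722).

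Between prefrontal cortex and striatum, different ligands were the high ones. Wnt4, Wnt5a, Wnt7b, Wnt9a and Wnt10a were higher in D1 prefrontal cortex than in both D1 striatal groups, whereas Wnt2 was lower in cortex than in both and Wnt7a lower in cortex than in ventral striatum. In cortex 6 ligands averaged at least 1 CPM, against 3 in each striatal group, and the summed level of the 19 ligands had a median of 24.0 CPM in cortex against 10.1 to 13.3 CPM in the striatal groups. Compared per kilobase of exon, the leading ligand was Wnt2 in D1 dorsal striatum, Wnt7a in the other 3 striatal groups and Wnt4 in cortex, where Wnt9a followed closely (mean level 1.23 and 1.21 CPM per kb).

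Wnt7b, a ligand of the β-catenin branch that is known for dendrite and vessel growth in brain, had 2.77, 5.28 and 8.04 CPM as the lowest, median and highest value in prefrontal cortex. In D1 dorsal and D1 ventral striatum its highest values were 1.01 and 1.3 CPM, so cortical and striatal libraries did not overlap. The means were 5.37 ± 1.26 CPM (SD, n = 19) in cortex and, in D1 dorsal striatum, 0.353 ± 0.300 CPM (SD, n = 15), a log2 difference of 2.83 ± 0.14 (limma adjusted p = 1.46e-20). Against D1 ventral striatum the difference was 2.57 ± 0.16 (adjusted p = 8.75e-18).

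Wnt9a and Wnt4 also had non-overlapping cortical and D1 striatal values. Wnt9a ranged from 1.79 to 6.16 CPM in cortex (median 3.85) and reached at most 1.62 CPM in D1 dorsal and 0.967 CPM in D1 ventral striatum. Its log2 differences were 2.20 ± 0.17 and 2.49 ± 0.16. Wnt4, which acts in kidney and reproductive tract development, ranged from 3.33 to 8.64 CPM in cortex (median 4.66), with striatal maxima of 1.77 and 1.86 CPM in the D1 groups. Its differences were 2.00 ± 0.15 and 2.36 ± 0.13, the largest limma adjusted p among these 4 tests being 9.33e-15. In both genes every cortical library lay above every D1 striatal library.

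Wnt5a and Wnt10a were higher in cortex with overlap. Wnt5a, the prototype of β-catenin-independent signalling, had 1.48, 2.95 and 8.53 CPM as lowest, median and highest cortical values, and was higher by 1.31 ± 0.16 than in D1 dorsal and by 0.85 ± 0.14 than in D1 ventral striatum (limma adjusted p = 3.91e-09 and 1.77e-06). Wnt10a had 0.862, 2.03 and 9.44 CPM, with differences of 1.32 ± 0.17 and 1.56 ± 0.15. The highest value of both genes came from the same library, prefrontal cortex replicate 10, whose next highest neighbours were 5.16 CPM for Wnt5a and 3.14 CPM for Wnt10a. That library also held the highest Fzd1, Dkk3, Sfrp1 and Ctnnb1 values of its group.

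Wnt2 ran the other way. It had 0.0702, 0.452 and 1.54 CPM as lowest, median and highest value in cortex, against 1.38, 2.5 and 6.94 CPM in D1 dorsal and 1.37, 2.6 and 4.14 CPM in D1 ventral striatum. Cortex minus striatum was -1.62 ± 0.15 and -1.61 ± 0.14 (limma adjusted p = 3.35e-12 and 1.57e-13). In cortex 3 of 19 libraries reached 1 CPM, whereas all 15 libraries of each D1 striatal group did.

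Within striatum, Wnt7a and Wnt8b had opposite regional patterns. Wnt7a, a ligand known for synapse formation and for vessel growth in the central nervous system, was higher in ventral striatum and, in each region, higher in D2 than in D1 libraries. Wnt8b, known from the early forebrain and the cortical hem that borders the developing hippocampus, was found almost entirely in dorsal striatum. The genes lie at chr6:91363981-91411363 (minus strand) and chr19:44493472-44514273 (plus strand) of GRCm38. Because their levels split the 2 striatal regions in opposite directions, the 250 bases before each RefSeq start (GRCm38.p6), at chr6:91411354-91411603 and chr19:44493222-44493471, are shown, in the direction of transcription. Capitals were kept for the TCF/LEF core, CTTTGNN with A or T in both last places, on either strand. Neither window holds it, which says only that these letters are absent there.
Wnt7a: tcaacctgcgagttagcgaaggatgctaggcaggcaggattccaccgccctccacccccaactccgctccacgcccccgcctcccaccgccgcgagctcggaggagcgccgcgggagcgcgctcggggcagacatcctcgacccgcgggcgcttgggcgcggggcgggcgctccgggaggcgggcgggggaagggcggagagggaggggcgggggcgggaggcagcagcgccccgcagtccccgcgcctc
Wnt8b: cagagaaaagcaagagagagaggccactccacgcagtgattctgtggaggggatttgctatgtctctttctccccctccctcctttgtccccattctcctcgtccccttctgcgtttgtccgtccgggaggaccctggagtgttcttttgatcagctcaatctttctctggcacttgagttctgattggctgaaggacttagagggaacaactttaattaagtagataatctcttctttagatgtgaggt

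Wnt7a had 0.508, 1.20 and 3.22 CPM as lowest, median and highest values in D1 dorsal striatum, 1.51, 3.64 and 6.49 CPM in D2 dorsal, 1.78, 4.19 and 6.32 CPM in D1 ventral, 3.12, 6.10 and 8.76 CPM in D2 ventral striatum and 0.282, 1.08 and 2.08 CPM in prefrontal cortex. Its means thus rank D2 ventral first and D1 dorsal with cortex last, and the difference between the last 2 was not called (cortex minus D1 dorsal -0.18 ± 0.17, limma adjusted p = 0.385). In dorsal striatum D1 minus D2 was -1.15 ± 0.17 (limma adjusted p = 2.48e-06), a mean 2.72-fold higher in D2. Within EM the dorsal difference was -1.21. In ventral striatum the difference was -0.40 ± 0.15 (adjusted p = 0.0291), and this call was lost on leaving out D2 ventral replicate 8 or 11 or D1 ventral replicate 15 (adjusted p = 0.0502 to 0.0526) or on scaling to reads in genes (adjusted p = 0.119).

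By region, Wnt7a was lower in dorsal than in ventral striatum in both receptor groups, the difference being -1.48 ± 0.15 in D1 (limma adjusted p = 4.45e-10) and -0.73 ± 0.18 in D2 (adjusted p = 0.00179). In D1 the ventral mean was 3.40-fold the dorsal mean, and 14 of 15 ventral libraries lay above every dorsal library. The D2 regional call was lost in the EM libraries alone (-0.62, adjusted p = 0.0694) and held in the OdP libraries alone (-0.90, adjusted p = 0.0115). The interaction of receptor and region, the dorsal minus the ventral D1 to D2 difference, was -0.75 ± 0.23 for Wnt7a and not called (limma adjusted p = 0.0613); it passed under 5 other settings, with adjusted p between 0.0187 and 0.0417.

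Wnt8b had 0.14, 1.55 and 5.92 CPM as lowest, median and highest values in D1 dorsal and 0.355, 2.71 and 6.22 CPM in D2 dorsal striatum. In ventral striatum no library reached 1 CPM (highest 0.734 in D1 and 0.883 in D2), and in cortex the highest value was 0.384 CPM. In D2, the dorsal mean of 2.82 ± 1.45 CPM (SD, n = 16) stood against 0.152 ± 0.257 CPM ventrally (SD, n = 14), a log2 difference of 2.28 ± 0.22 (limma adjusted p = 2.27e-10), and 15 of 16 dorsal libraries lay above every ventral one. Wnt8b entered this test through its dorsal libraries alone, so the p-value adds no support to the difference. In D1 the gene missed the minimum of 1 CPM; with a minimum of 0.25 CPM its difference was 1.80 ± 0.21 (adjusted p = 1.86e-08). D1 and D2 dorsal libraries overlapped, and their difference of -0.54 ± 0.25 was not called (adjusted p = 0.108), although it was on leaving out D1 dorsal replicate 13, which held the highest D1 value (next 2.77), or D2 dorsal replicate 6 (adjusted p = 0.031 and 0.033). Of the 4 choroid plexus and ependyma markers, Ttr was also higher dorsally (2.98 ± 0.50 in D2, limma adjusted p = 1.51e-05), whereas Kl was lower dorsally in D1 and D2 (-1.36 ± 0.18 and -0.94 ± 0.19, adjusted p = 1.37e-07 and 0.000307); the part of such cells was not tested.

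Wnt2, Wnt5a, Wnt9a and Wnt10a also differed between striatal groups, the last 2 at levels below the minimum. In dorsal striatum, Wnt2 averaged 2.90 ± 1.27 CPM in D1 (SD, n = 15) and 1.76 ± 0.647 CPM in D2 (SD, n = 16), a difference of 0.58 ± 0.17 (limma adjusted p = 0.0089) that was not called within the EM libraries (0.43, adjusted p = 0.153), with the code as a covariate (adjusted p = 0.185) or without the libraries that stand apart (adjusted p = 0.0772). In ventral striatum it was 0.30 ± 0.15 and not called (adjusted p = 0.0922), but was called on leaving out D1 ventral replicate 14 (adjusted p = 0.0391), on scaling to reads in genes (adjusted p = 0.0311) or with the code as a covariate (adjusted p = 0.0278). Wnt5a was higher in D1 than in D2 ventral striatum by 0.63 ± 0.19 (limma adjusted p = 0.00819). That call was lost within EM (0.40, adjusted p = 0.135), in edgeR (adjusted p = 0.0504) and with the code as a covariate (adjusted p = 0.07). Wnt5a was also lower in dorsal than in ventral D1 libraries (-0.46 ± 0.14, limma adjusted p = 0.0109). This was not called within EM (adjusted p = 0.075), in edgeR (adjusted p = 0.0737) or without the libraries that stand apart (adjusted p = 0.0891). Wnt10a, below the minimum in striatum, had a D1 dorsal median of 0.585 CPM against 0.0181 CPM in D2 dorsal striatum. With a minimum of 0.25 CPM its difference there was 0.98 ± 0.12 (adjusted p = 6.15e-08). That of Wnt9a was 0.70 ± 0.16 (adjusted p = 0.00103), with means of 0.505 CPM in D1 and 0.0964 CPM in D2 dorsal striatum.

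**Figure D2:**
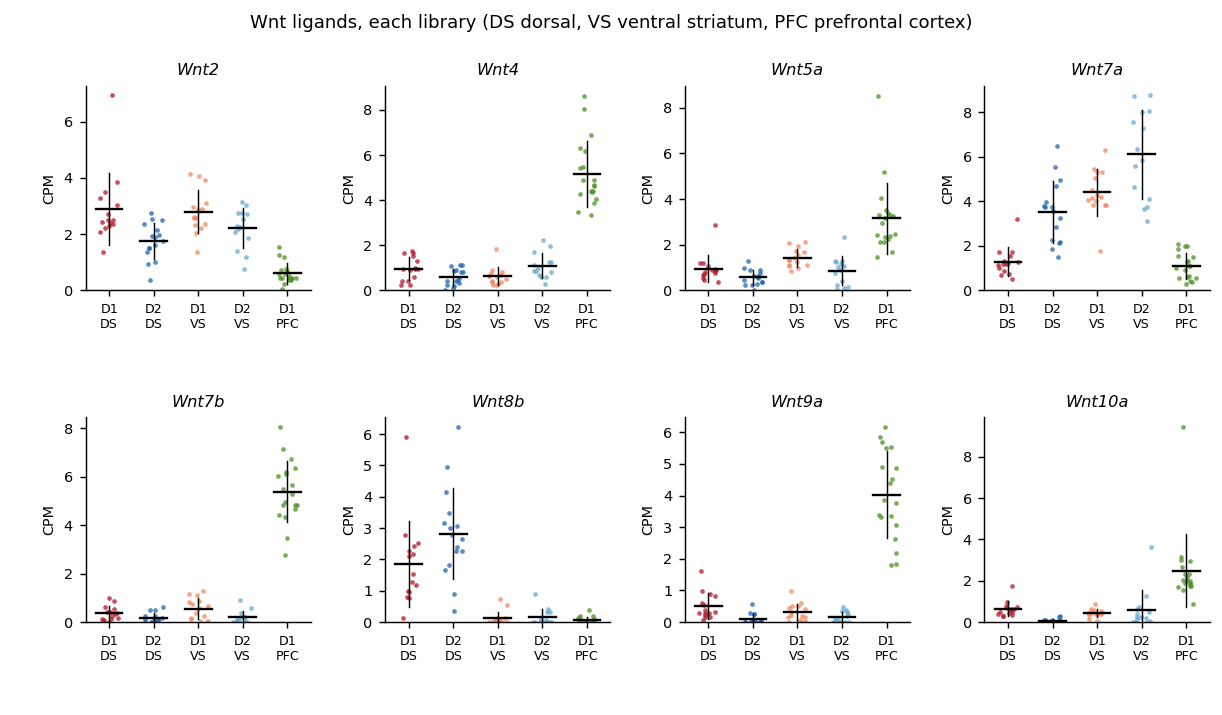
CPM (y axis) of 8 Wnt ligands in each library (points) of the 5 groups (x axis); horizontal bars are means and vertical bars 1 SD. Wnt4, Wnt7b, Wnt9a and Wnt10a are highest in prefrontal cortex, Wnt8b reaches 1 CPM in dorsal striatum only, and Wnt7a is highest in D2 ventral striatum (mean 6.11 CPM).

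Among receptors, Fzd3 and Lrp6 dominated every group. Fzd3, a Frizzled known for axon guidance and planar polarity, made up 58.1% of the summed Frizzled level per kilobase of exon in cortex and 73.7% to 82.4% in the striatal groups. Lrp6 averaged 13.3 to 26.4 CPM, whereas its relative Lrp5 had group means of at most 0.147 CPM and a read in 37 of 79 libraries. Per kilobase, Lrp6 held 98.5% to 99.8% of the pair in all groups.

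In striatum Fzd3 was higher in D2 than in D1 dorsal libraries and Lrp6 higher in D2 in both regions, and both genes were lowest in cortex. Fzd3 had 13.8, 26.2 and 39.5 CPM as lowest, median and highest values in D1 dorsal, 24.5, 34.3 and 44.7 CPM in D2 dorsal, 16.8, 23.7 and 35.2 CPM in D1 ventral, 11.2, 30.1 and 51.6 CPM in D2 ventral striatum and 14.0, 20.4 and 26.7 CPM in cortex. The groups overlapped widely. The dorsal D1 minus D2 difference was -0.36 ± 0.12 (limma adjusted p = 0.0198) and was not called within EM (adjusted p = 0.153), with the code as a covariate (adjusted p = 0.0836) or on scaling to reads in genes (adjusted p = 0.0524). The ventral difference was -0.31 ± 0.15, with means of 25.0 and 32.4 CPM, and was not called (adjusted p = 0.0966), although it was without D2 ventral replicate 6 (adjusted p = 0.00800). Cortex minus D1 dorsal and D1 ventral striatum was -0.32 ± 0.11 and -0.26 ± 0.09 (adjusted p = 0.0111 and 0.0131), the first not called without the libraries that stand apart (adjusted p = 0.156).

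Mean Lrp6 in dorsal striatum was 19.0 ± 3.53 CPM for D1 (SD, n = 15) and 24.2 ± 4.07 CPM for D2 (SD, n = 16). In ventral striatum it was 17.6 ± 2.67 CPM for D1 (SD, n = 15) and 26.4 ± 6.36 CPM for D2 (SD, n = 14), and in cortex 13.3 ± 2.48 CPM (SD, n = 19). D1 minus D2 was -0.34 ± 0.10 dorsally and -0.55 ± 0.11 ventrally (limma adjusted p = 0.00753 and 0.000122). In ventral striatum 9 of 14 D2 libraries lay above every D1 library. The dorsal call was lost within EM (-0.31, adjusted p = 0.0661). The ventral one held within EM (-0.61, adjusted p = 0.000923) but was lost when the percentage of reads in genes was a covariate (-0.35, adjusted p = 0.106); that percentage averaged 35.1% in D1 and 38.0% in D2 ventral libraries. Cortex minus striatum was -0.51 ± 0.10 and -0.41 ± 0.09 (adjusted p = 1.76e-05 and 0.000104).

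Fzd5 and Fzd1 were low but regional. Fzd5 had 0.0654, 0.741 and 3.09 CPM as lowest, median and highest values in D1 dorsal and 0.0254, 0.646 and 2.26 CPM in D2 dorsal striatum, against 1.02, 1.69 and 3.11 CPM in D1 ventral and 0.523, 1.81 and 4.43 CPM in D2 ventral striatum. Dorsal minus ventral was -0.79 ± 0.18 in D1 and -1.18 ± 0.23 in D2 (limma adjusted p = 0.000677 and 0.000172). In cortex it reached at most 1.02 CPM, and cortex minus D1 ventral striatum was -1.34 ± 0.13 (adjusted p = 1.84e-11). Mean Fzd1 was 1.86 ± 0.777 CPM for D2 dorsal striatum (SD, n = 16) and 2.09 ± 0.913 CPM for cortex (SD, n = 19), against 0.527 ± 0.347 CPM for D1 dorsal striatum (SD, n = 15). It was higher in cortex than in D1 dorsal and D1 ventral striatum by 1.34 ± 0.16 and 1.02 ± 0.15, and in D2 higher dorsally by 0.73 ± 0.21 (adjusted p = 0.00766), a call not made within EM (0.47, adjusted p = 0.291). Its interaction of receptor and region was called (-1.05 ± 0.27, limma adjusted p = 0.0151), the D1 minus D2 difference being -1.20 dorsally (adjusted p = 2.33e-06 with a minimum of 0.25 CPM) and -0.15 ventrally; the test missed the threshold in the edgeR fit (adjusted p = 0.0731) and within EM (-0.72, adjusted p = 0.274).

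The other 7 Frizzled genes stayed below a mean of 1 CPM. Fzd7 was the highest of them in cortex (0.908 ± 0.433 CPM, SD, n = 19) and Fzd10 the sparsest, with a read in 13 libraries.

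Of the secreted regulators, Dkk3 showed the widest range of any member. Dkk3 is a divergent Dickkopf protein, made by many cortical and hippocampal neurons; its gene lies at chr7:112116017-112159057 (minus strand, GRCm38). It had 92.0, 148 and 255 CPM as lowest, median and highest values in prefrontal cortex, 7.59, 15.3 and 29.9 CPM in D1 dorsal, 0.879, 3.34 and 11.9 CPM in D2 dorsal, 2.34, 5.56 and 9.46 CPM in D1 ventral and 0.969, 2.68 and 9.52 CPM in D2 ventral striatum. Every cortical library lay above every striatal one.

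Cortex exceeded D1 dorsal striatum by 3.26 ± 0.16 and D1 ventral striatum by 4.66 ± 0.16 on the log2 scale (limma adjusted p = 5.86e-21 and 2.4e-26), 9.68-fold and 27.1-fold in mean CPM. In dorsal striatum D1 exceeded D2 by 2.17 ± 0.24 (adjusted p = 5.05e-09), 4.47-fold, and 10 of 15 D1 libraries lay above every D2 library. In ventral striatum the difference was 0.76 ± 0.23 (adjusted p = 0.00698), and it was not called within EM (0.53, adjusted p = 0.116). In D1, dorsal exceeded ventral striatum by 1.40 ± 0.18 (adjusted p = 1.47e-07), with 14 of 15 dorsal libraries above every ventral one. In D2 the regional difference was -0.01 ± 0.28 and not called (adjusted p = 0.981). The D1 minus D2 difference was larger dorsally by 1.41 ± 0.34 (limma adjusted p = 0.00835; 1.29 and adjusted p = 0.092 within EM).

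The cortical glutamatergic markers, like Dkk3, were highest in cortex and, within striatum, exceeded the D2 level in D1 libraries. As a percentage of the cortical median, Dkk3 stood at 10.3% in D1 dorsal, 2.25% in D2 dorsal, 3.75% in D1 ventral and 1.80% in D2 ventral striatum, and the summed markers at 15.9%, 1.23%, 10.8% and 1.85%. All 4 markers were called higher in D1 than in D2 libraries in both regions. Between dorsal and ventral D1 libraries, where Dkk3 was called, 1 of 4 was (Neurod6, 0.84 ± 0.26, limma adjusted p = 0.0104), and in the interaction test their adjusted p ran from 0.119 to 0.444. Summed interneuron markers also had their highest striatal median in D1 dorsal libraries, the groups standing at 19.6%, 6.76%, 11.6% and 13.3% of the cortical one in the same order of groups. Of 4 tested, Npy, Pvalb and Sst were called higher in D1 than in D2 dorsal striatum and in dorsal than in ventral D1 libraries, while Lhx6 was called lower in the latter comparison. Npy (1.23 ± 0.29, limma adjusted p = 0.00552) and Sst (1.63 ± 0.33, adjusted p = 0.00109) were also called in the interaction, as was Slc17a6 (1.33 ± 0.37, adjusted p = 0.0333). Between libraries of a group, Dkk3 and the cortical marker sum correlated in D1 ventral striatum (r = 0.69, rho = 0.66, n = 15, permutation p = 0.0047 and 0.0083, adjusted 0.012 and 0.021 over 10 relations; r = 0.53 without the 2 libraries farthest from the median; r = 0.92 within EM, n = 11). In D1 dorsal striatum r was 0.36 and rho 0.45 (permutation p = 0.19 and 0.093, adjusted 0.21 and 0.1, r = 0.089 without the 2 farthest, 0.11 within EM). In D2 dorsal striatum r was 0.53 and rho 0.54 (permutation p = 0.063 and 0.034, adjusted 0.079 and 0.056, r = 0.54 without the 2 farthest). Within EM r was 0.42 and rho 0.38 (n = 8), and r was 0.76 without the 2 farthest. Within OdP r was 0.45 but rho was 0 (n = 8), and r was -0.22 without the 2 farthest. In D2 ventral striatum r was 0.77 and rho 0.47 (permutation p = 0.013 and 0.094, adjusted 0.021 and 0.1), and r was 0.50 without the 2 farthest; within EM r was 0.88 and rho 0.29 (n = 8), and r was 0.76 without the 2 farthest. In cortex r was 0.57 and rho 0.54 (permutation p = 0.011 and 0.019, adjusted 0.021 and 0.038, 0.45 without the 2 farthest), but r was 0.084 within EM. These relations were chosen after the values were seen. The part of cortical RNA, or of these other cells, in the striatal Dkk3 differences was not tested.

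Dkkl1 and Frzb were also highest in cortex. Dkkl1, a Dickkopf-like secreted protein, had 2.36, 5.23 and 8.41 CPM as lowest, median and highest values in cortex, at most 1.08 CPM in D1 dorsal and 0.874 CPM in D1 ventral striatum, and a median of 0 in both D2 groups. Cortex was higher by 2.66 ± 0.17 and 2.65 ± 0.16 (limma adjusted p = 5.3e-17 and 4.69e-18), with no overlap. Frzb, which binds Wnts like the SFRP proteins, averaged 3.38 ± 1.06 CPM in cortex (SD, n = 19) and, for D1 dorsal striatum, 0.662 ± 0.678 CPM (SD, n = 15), where replicate 13 held 2.88 CPM and the next library 0.950 CPM. Its cortical differences were 1.85 ± 0.18 and 2.36 ± 0.14. As a share of the cortical median, the D1 dorsal median was 6.22% for Wnt7b, 7.24% for Dkkl1, 7.96% for Wnt9a and 16.3% for Frzb, beside 15.9% for the summed cortical markers. It was above that for Wnt4 (20.4%), Wnt5a (28.6%), Wnt10a (28.8%) and Fzd1 (30.5%). In D1 ventral striatum, where the summed markers stood at 10.8%, Wnt7b lay above them (11.3%) and Frzb (5.65%), Dkkl1 (6.17%) and Wnt9a (5.44%) below. Their part in these levels was not tested.

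Sfrp1, a secreted Frizzled-related protein, had 1 called difference at the minimum of 1 CPM. It averaged 1.67 ± 0.671 CPM (SD, n = 19) in cortex and, for D1 ventral striatum, 1.13 ± 0.459 CPM (SD, n = 15; 0.40 ± 0.14, limma adjusted p = 0.0133). With a minimum of 0.25 CPM it was also called higher in D1 than in D2 dorsal striatum, by 1.15 ± 0.26 (adjusted p = 0.00083), as was Frzb (0.73, adjusted p = 0.00224). In D1 dorsal striatum 14 libraries lay between 0.337 and 2.85 CPM and replicate 13 at 8.01 CPM. That library was the highest of its group in 7 members at 1 CPM or more, among them Wnt2, Wnt5a, Wnt8b, Dkk3 and Frzb; the largest D1 sum of the 3 Slc17a6-neuron markers (Slc17a6, Gbx2 and Lhx9) was also there (11 CPM; group median 3.56 CPM). Dkk2 reached 5.74 and 2.67 CPM in 2 D2 dorsal libraries against a group median of 0.0746 CPM. Wif1, Sfrp4 and Sfrp5 had group means of at most 0.213 CPM.

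**Figure D3:**
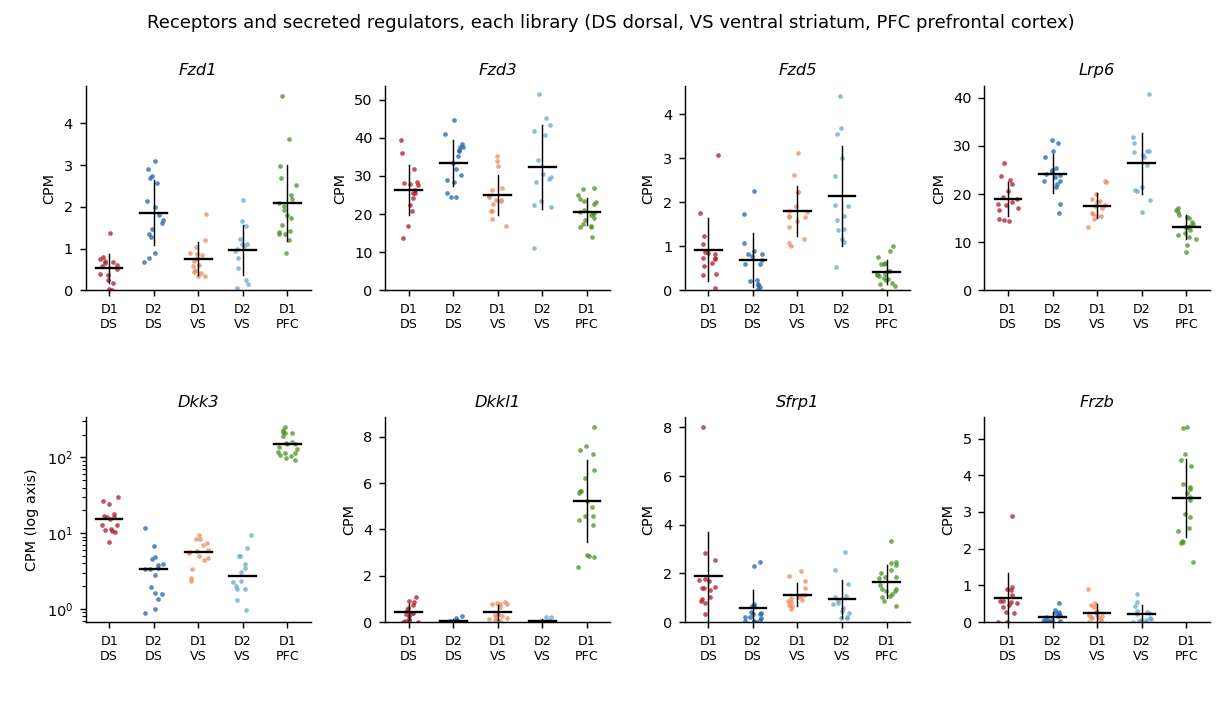
CPM (y axis; logarithmic for Dkk3, with bars at medians) of 4 receptors and 4 secreted regulators in each library (points) of the 5 groups; in the other panels horizontal bars are means and vertical bars 1 SD. Dkk3 in cortex (92.0 to 255 CPM) lies above all striatal libraries, and Fzd3 and Lrp6 are lowest on average in cortex.

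Among the transducers, Tcf7 and Ctnnb1 differed between regions in both receptor groups, while Axin2 was not called. Ctnnb1, which encodes β-catenin, had group medians from 98.9 to 136 CPM, and Axin2 from 6.19 to 8.08 CPM. Axin2, the pathway target, was called in none of its 7 limma tests (adjusted p from 0.0904 to 0.763), with log2 differences between -0.18 and 0.27. In other settings it was called in cortex against D1 ventral striatum by edgeR (0.26, adjusted p = 0.0381), in D1 against D2 ventral striatum on scaling to reads in genes (0.40, adjusted p = 0.0494) and, without prefrontal cortex replicate 10, in cortex against both D1 striatal groups (adjusted p = 0.033 and 0.0315). A test not passed does not show equal levels.

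Axin2 and Tcf7l2 are shown by sequence because one is a known target of TCF/LEF factors and the other encodes one. The Axin2 window is the 250 bases before the RefSeq start at chr11:108920099-108920348 and the Tcf7l2 window lies before an internal start at chr19:55895071-55895320 (both plus strand, GRCm38.p6). The other Tcf7l2 window, before the upstream start at chr19:55741560-55741809, holds no core and is not printed. The capitals in the second mark the TCF/LEF core, which begins 14 bases before the start; the Axin2 window holds none.
Axin2: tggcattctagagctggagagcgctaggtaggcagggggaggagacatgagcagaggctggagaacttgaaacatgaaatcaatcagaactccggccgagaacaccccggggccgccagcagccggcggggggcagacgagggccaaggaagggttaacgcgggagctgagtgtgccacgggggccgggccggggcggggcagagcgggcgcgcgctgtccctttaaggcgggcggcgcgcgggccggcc
Tcf7l2: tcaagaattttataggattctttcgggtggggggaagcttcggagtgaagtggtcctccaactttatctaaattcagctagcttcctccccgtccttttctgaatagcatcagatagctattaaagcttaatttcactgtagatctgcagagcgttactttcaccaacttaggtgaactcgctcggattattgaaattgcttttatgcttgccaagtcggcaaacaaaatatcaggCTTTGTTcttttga

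RefSeq windows were used for 34 of the 49 members, and 6 of their 43 windows held the core on either strand, 14% against 14.8% of all 32851 windows of that length. Windows on chromosome 18, where Wnt8a and Fzd8 lie, were left out for the members only. The share among members was near that of all windows. Dkk3 and Wnt7b had no entry.

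Ctnnb1 was lower in dorsal than in ventral striatum. It had 74.5, 98.9 and 147 CPM as lowest, median and highest values in D1 dorsal against 108, 136 and 159 CPM in D1 ventral striatum, and 70.8, 111 and 141 CPM in D2 dorsal against 83.2, 136 and 213 CPM in D2 ventral striatum. The differences were -0.37 ± 0.09 and -0.38 ± 0.11 (limma adjusted p = 0.00113 and 0.0116). The median of all tested genes in these dorsal against ventral comparisons was itself -0.12, and after median-ratio scaling it was -0.01 in D1 and 0.01 in D2. With that scaling Ctnnb1 in D2 was -0.25 and no longer called (adjusted p = 0.08). Cortex exceeded D1 dorsal striatum by 0.30 ± 0.09 (adjusted p = 0.00722), not called without the libraries that stand apart (adjusted p = 0.0924). An opposite-strand gene, Ulk4, shares 475 exonic bases with Ctnnb1, and without stated strand such reads cannot be assigned. The same limit holds for other members that overlap opposite-strand genes, among them Lef1 (1208 bases), Fzd5 (619), Wnt5a (233), Wnt7b (198), Axin2 (105) and Tcf7l1 (95). Median Ulk4 was 19.6 and 23.0 CPM in D1 and D2 dorsal, 28.4 and 30.0 CPM in D1 and D2 ventral striatum and 26.5 CPM in cortex, also lower dorsally, and its part in the Ctnnb1 difference was not tested.

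Axin1, the scaffold of the destruction complex, averaged 7.66 ± 1.85 CPM for D1 ventral striatum (SD, n = 15) and 5.23 ± 3.12 CPM for D2 ventral striatum (SD, n = 14), a difference of 0.67 ± 0.21 (limma adjusted p = 0.00893). Within EM it was 0.30 (adjusted p = 0.0972), and with the percentage of reads in genes as a covariate 0.26 (adjusted p = 0.607). Dorsal minus ventral in D1 was -0.35 ± 0.14 (adjusted p = 0.0411), and this call was lost in 16 of 30 fits that left out 1 library and with no minimum CPM, scaling to reads in genes, median-ratio scaling, edgeR or the libraries that stand apart left out (adjusted p = 0.0627, 0.0693, 0.175, 0.188 and 0.179). Cortex minus D1 ventral striatum was -0.72 ± 0.16 (adjusted p = 0.000113). Cortex minus D1 dorsal striatum was -0.37 ± 0.17 and not called (adjusted p = 0.0566), but was called in 10 of 34 fits without 1 library (adjusted p down to 0.0186).

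Tcf7, which encodes TCF1, separated cortex from striatum and dorsal from ventral striatum. Its gene lies at chr11:52252371-52283014 (minus strand, GRCm38). It had 6.87, 9.14 and 17.5 CPM as lowest, median and highest values in D1 dorsal, 8.18, 11.2 and 13.5 CPM in D2 dorsal, 4.60, 6.45 and 10.0 CPM in D1 ventral, 2.88, 6.31 and 9.38 CPM in D2 ventral striatum and 0.351, 0.765 and 1.98 CPM in cortex. No cortical library overlapped a striatal one. Cortex minus D1 dorsal and D1 ventral striatum was -2.98 ± 0.14 and -2.44 ± 0.13 (limma adjusted p = 1.76e-21 and 4.49e-20), the striatal means being 11.6-fold and 7.74-fold the cortical mean. Dorsal exceeded ventral striatum by 0.54 ± 0.12 in D1 and 0.78 ± 0.13 in D2 (adjusted p = 0.000434 and 1.84e-05), against a median of -0.12 for all genes. D1 and D2 were not called different in either region. Per kilobase of exon, Tcf7 made up 65.2% to 82.9% of the TCF/LEF level in the striatal groups and 35.6% in cortex.

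Tcf7l2, a TCF factor known for its high level in thalamus, varied widely between libraries of a group. It had 0.839, 6.41 and 18.1 CPM as lowest, median and highest values in D1 dorsal, 0.475, 3.19 and 10.9 CPM in D2 dorsal, 5.22, 10.3 and 17.6 CPM in D1 ventral, 0.949, 4.88 and 10.5 CPM in D2 ventral striatum and 1.38, 2.36 and 5.95 CPM in cortex. In ventral striatum D1 exceeded D2 by 1.28 ± 0.24 (limma adjusted p = 7.43e-05), a difference of 0.66 within EM (adjusted p = 0.0143). In dorsal striatum it was 0.83 ± 0.37 and not called (adjusted p = 0.0899), but was called by edgeR (1.04, adjusted p = 0.0495), without the libraries that stand apart (1.21, adjusted p = 0.0339) and on leaving out D1 dorsal replicate 3 or 15 (adjusted p = 0.0395 and 0.0366). Dorsal minus ventral was -0.95 ± 0.31 in D1 (adjusted p = 0.0168; within EM -0.59 and adjusted p = 0.173; edgeR -0.53 and adjusted p = 0.232). In D2 it was -0.50 ± 0.32 and not called (adjusted p = 0.247), -0.83 and called within EM (adjusted p = 0.0217) and 0.22 within OdP. Cortex minus D1 dorsal and D1 ventral striatum was -0.96 ± 0.28 and -1.91 ± 0.15 (adjusted p = 0.00366 and 3.2e-14).

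In 3 of the 4 striatal groups Tcf7l2 correlated with Slc17a6, the vesicular glutamate transporter of thalamic and other subcortical excitatory neurons. In D1 dorsal striatum r was 0.81 and rho 0.88 (n = 15, permutation p = 0.00041 and 6e-05, adjusted 0.0014 and 0.00045 over the same 10 relations), r being 0.77 without the 2 libraries farthest from the median and 0.76 within EM. In D2 dorsal striatum r was 0.85 and rho 0.85 (n = 16, permutation p = 0.00011 and 9e-05, adjusted 0.0011 and 0.00045; 0.83 without the 2 farthest, 0.68 within EM and 0.89 within OdP). In D1 ventral striatum r was 0.79 and rho 0.76 (n = 15, permutation p = 0.00039 and 0.0014, adjusted 0.0014 and 0.0048; 0.67 without the 2 farthest, 0.82 within EM). In D2 ventral striatum r was 0.53 and rho 0.56 (n = 14, permutation p = 0.049 and 0.039, adjusted 0.071 and 0.056; 0.49 without the 2 farthest, 0.52 within EM). In cortex r was -0.15 and rho -0.24 (n = 19, permutation p = 0.55 and 0.32, adjusted 0.55 and 0.32; -0.26 without the 2 farthest, -0.26 within EM). Slc17a6 itself had medians of 3.46 CPM in D1 dorsal, 0.826 CPM in D2 dorsal, 3.23 CPM in D1 ventral and 3.11 CPM in D2 ventral striatum. The summed 3-gene list ranged over 0.771 to 11, 0.115 to 3.67, 1.92 to 8.37 and 1.01 to 6.21 CPM in those groups, and its part in the Tcf7l2 differences was not tested. The pair was chosen after the values were seen.

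Lef1 and Tcf7l1 were low, and within striatum their means were higher dorsally. Dorsally, mean Lef1 was 1.33 ± 0.983 CPM for D1 (SD, n = 15) and 0.669 ± 0.767 CPM for D2 (SD, n = 16), against 0.160 and 0.185 CPM in the ventral groups and 0.505 CPM in cortex. Tcf7l1, a TCF factor known mainly as a repressor, averaged 1.52 ± 0.772 CPM for D1 (SD, n = 15) and 1.46 ± 1.28 CPM for D2 (SD, n = 16) dorsally, 0.352 and 0.418 CPM ventrally and 0.979 CPM in cortex. Cortex minus D1 dorsal striatum was -0.40 ± 0.19 for Tcf7l1 and not called (limma adjusted p = 0.0728), although it was on leaving out cortical replicate 1 or 18 or D1 dorsal replicate 11 or 13. Both missed the minimum of 1 CPM in the dorsal against ventral comparisons, and Lef1 in all. With a minimum of 0.25 CPM, dorsal minus ventral was 1.34 ± 0.22 for Lef1 and 1.16 ± 0.19 for Tcf7l1 in D1 (limma adjusted p = 7.58e-06 and 5.97e-06) and 0.96 ± 0.22 for Tcf7l1 in D2 (adjusted p = 0.00105). For Lef1 in D2 it was 0.65 ± 0.24 with no minimum and not called (adjusted p = 0.0625).

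**Figure D4:**
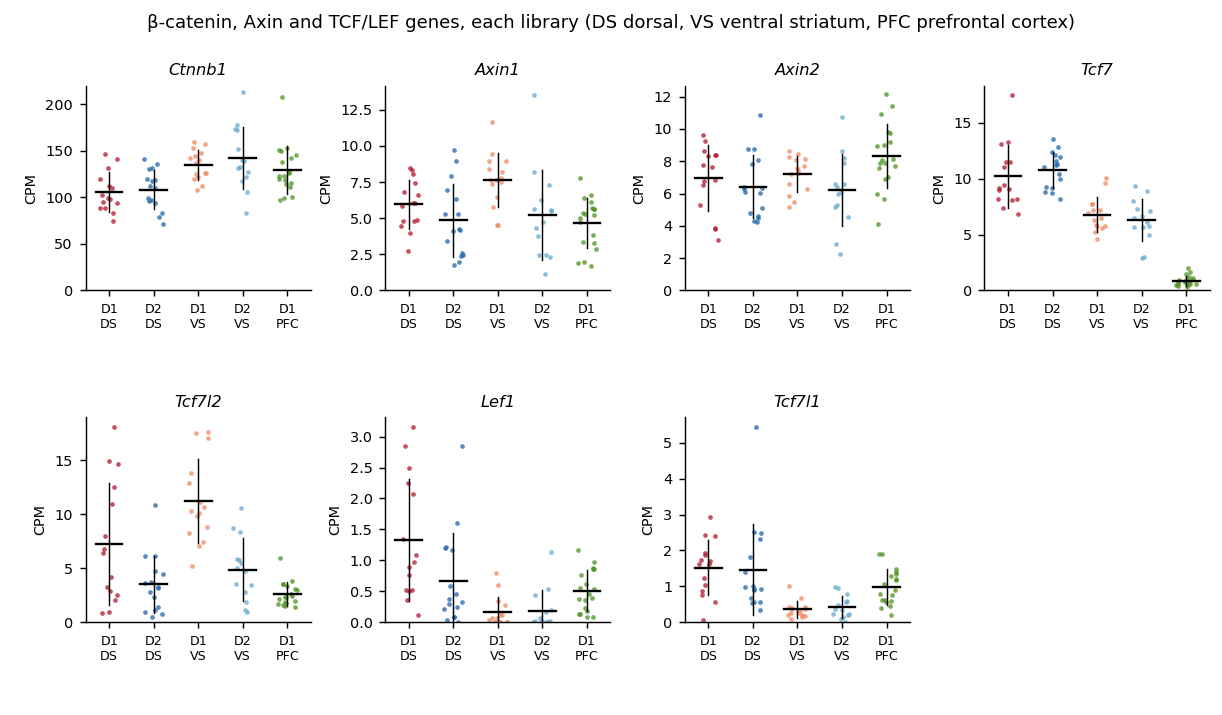
CPM (y axis) of the β-catenin, Axin and TCF/LEF genes in each library (points) of the 5 groups; horizontal bars are means and vertical bars 1 SD. Tcf7 in cortex stays at or below 1.98 CPM and below all striatal libraries, while Axin2 overlaps in all groups.

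**Figure D5:**
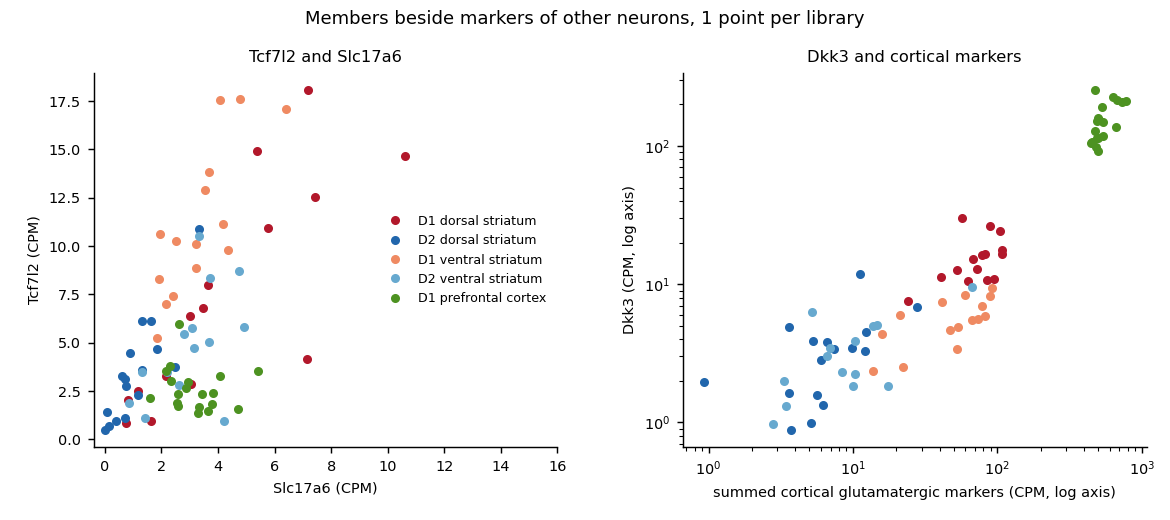
Left, Tcf7l2 against Slc17a6 (both CPM), and right, Dkk3 against the summed cortical glutamatergic markers (CPM, logarithmic axes), with 1 point per library coloured by group. Tcf7l2 is higher where Slc17a6 is higher in D1 dorsal, D2 dorsal and D1 ventral striatum (r from 0.79 to 0.85), less clearly in D2 ventral striatum (r = 0.53, not passed after adjustment), and the cortical libraries lie apart from all others in the Dkk3 panel.

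Genes of the pathway beside the members were taken as a list of 58, of which 57 are in the table. In D1 against D2 dorsal striatum 8 of 33 tested were called (3 higher, 5 lower), 24.2% beside 25.9% of all tested genes, and in ventral striatum 15 of 34 (6 higher, 9 lower), 44.1% beside 47.7%. Dorsal against ventral, 13 of 34 were called in D1 (6 higher, 7 lower), 38.2% beside 34.6%, and 9 of 34 in D2 (4 higher, 5 lower), 26.5% beside 28.5%. In these 4 comparisons the shares were near those of all genes. In cortex 28 of 37 were called against D1 dorsal (21 higher, 7 lower), 75.7% beside 54.8%, and 26 of 39 against D1 ventral striatum (17 higher, 9 lower), 66.7% beside 62.8%. In the limma interaction test 0 of 37 were called, beside 2.64% of all genes, with 6 at an unadjusted p under 0.05; edgeR called 1. The median differences of the list in the 2 cortical comparisons were 0.35 and 0.08, beside 0.05 and -0.07 for all tested genes.

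Among the genes of this list that were called and at least 2-fold different in cortex, several were higher there. Rspo2 and Rspo3, the R-spondins that amplify Wnt signals through LGR receptors, were higher in cortex than in D1 dorsal striatum by 2.84 ± 0.15 and 2.05 ± 0.21 and than in D1 ventral striatum by 3.45 ± 0.15 and 2.25 ± 0.16 (largest limma adjusted p = 2.81e-11). Rspo1, a further R-spondin that was named after its values were seen, was called lower in cortex, the differences being -0.86 ± 0.15 and -0.93 ± 0.15 (adjusted p = 4.01e-06 and 6.4e-07). Rspo2 averaged 8.26 ± 2.97 CPM (SD, n = 19) in cortex against, for D1 dorsal striatum, 0.706 ± 0.336 CPM (SD, n = 15). Wls, the carrier that brings Wnts to the cell surface, was higher in cortex by 1.48 ± 0.15 and 1.42 ± 0.14, and Gpc4, a glypican, by 2.24 ± 0.13 and 2.68 ± 0.12. Ccnd1, the cyclin D1 gene, was higher by 1.92 ± 0.11 and 2.36 ± 0.10.

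Vangl2 and Prickle1, of the planar polarity branch, were higher in cortex by 1.70 ± 0.17 and 1.12 ± 0.07 than in D1 dorsal and by 1.41 ± 0.13 and 1.48 ± 0.07 than in D1 ventral striatum. At least 2-fold higher in 1 of the 2 cortical comparisons were also Dvl3 (1.02) and Ctnnbip1 (1.19) against dorsal, and Nkd1 (1.42) and Daam2 (1.13) against ventral striatum. Of the Groucho co-repressors, Tle3 was higher in cortex by 1.98 ± 0.14 and 1.44 ± 0.11, while Tle1 and Tle4 were lower, with cortex minus striatum at -1.44 ± 0.10 and -1.41 ± 0.09 for Tle1 and -1.26 ± 0.14 and -1.20 ± 0.12 for Tle4. Tle3 was also higher in D1 than in D2 libraries, by 1.29 ± 0.20 dorsally and 1.14 ± 0.19 ventrally (limma adjusted p = 3.5e-06 and 9.38e-06).

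The Kremen genes, whose products bind some Dickkopf proteins, differed between striatal regions or from cortex. Kremen1 averaged 3.59 ± 0.705 CPM for D1 dorsal striatum (SD, n = 15) and 0.978 ± 0.341 CPM for D1 ventral striatum (SD, n = 15; 1.48 ± 0.11, limma adjusted p = 9.36e-13), and all 15 dorsal libraries lay above every ventral one. Kremen2 averaged 2.40 ± 0.507 CPM for D1 ventral striatum (SD, n = 15) against 0.158 ± 0.153 CPM (SD, n = 19) in cortex (cortex minus striatum -2.15 ± 0.11, adjusted p = 1.22e-20), again without overlap.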

How the data were processed

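Ribosome-bound mRNA of 79 libraries in 5 groups was measured by RNA sequencing of 50-base read pairs from amplified cDNA, per the labels' protocols. The authors deposited CPM values, 25899 gene symbols by 79 columns, and each column was matched to a sample by name. Per the submitters' processing notes, the tools were Trim Galore 0.4.2, cutadapt 1.9.1, FastQC and HISAT2 on build GRCm38; the counter, annotation and strand setting are not given in the sources used here. In each column the deposited CPM were whole multiples of 1 step, and dividing by it gave whole reads for 100% of values above 0 (within 0.01 read). Reads in genes came to 7.35 to 30.8 M per library (median 17.5 M). They make up 31.0% to 40.2% of the total to which the CPM were scaled, so that percentage enters the level of every gene. Reads are amplified and carry no stated molecular identifiers, so depth covers counting error only.

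Groups came from the labelled receptor and region. Replicate numbers follow accession order and are names only. Whether groups share mice is not stated, and libraries were treated as independent. Members and lists were chosen with earlier results of these data known; 1 marker gene is not reported here and was left out of its list. Each comparison was fitted with limma 3.58.1 (R 4.3.3; lmFit, eBayes with trend) on log2(CPM + 0.5) in the compared groups alone, for genes with at least 1 CPM in as many libraries as the smaller group holds. Tests were two-sided, adjusted by Benjamini-Hochberg over all genes tested, and called under 0.05. Alternatives were pseudocounts of 0.1 and 1, no minimum, a minimum of 0.25 CPM, scaling to reads in genes, median-ratio scaling, edgeR 4.0.16 on the recovered reads, the EM or OdP libraries alone, covariates for name code, share of reads in genes and number of males, and each library left out. Leaving out the 16 libraries that stand apart was chosen after seeing the data. The fits were tested on simulated data. Correlations used 100000 permutations. A member with a group mean of at least 1 CPM is described with values, the others by range and detection, and pathway genes by name where called and at least 2-fold different. Coordinates and exon lengths are from the GENCODE annotation of GRCm38.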

Additional observations from a re-analysis of the deposited data

Results flagged for a closer look

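For 3 members the D1 minus D2 difference itself differed between dorsal and ventral striatum in the interaction test of limma. Dkk3 differed by 1.41 on the log2 scale, the D1 excess being larger dorsally. Fzd1 differed by -1.05, with D2 above D1 dorsally and little difference ventrally. Wnt4 differed by 0.91, with D1 above D2 dorsally and below it ventrally. The adjusted p-values were 0.00835, 0.0151 and 0.0368, and each call was lost under at least 1 of the alternatives.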

How the results depend on the processing

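Of 61 called member results, 42 kept their call and direction under each alternative in which they could be fitted, single libraries left out aside, and 0 changed direction under any that was run. The OdP libraries alone were fitted only for D2 dorsal against ventral striatum. Counts of called members depend on the minimum level, since more members are tested. Without a minimum, 11 and 10 members were called in D1 against D2 dorsal and ventral striatum, 13 and 11 in dorsal against ventral D1 and D2 libraries, and 28 and 29 in cortex against dorsal and ventral striatum, where 17.2%, 29.9%, 22.8%, 18.6%, 41.9% and 47% of all genes tested without a minimum were called. At 0.25 CPM the counts were 10 in D1 against D2 dorsal striatum, 15 in dorsal against ventral D1 libraries and 23 in cortex against dorsal striatum, beside 25.5%, 33.3% and 54.9% of all genes. In the EM libraries alone, with fewer samples, they were 2 and 3 in D1 against D2 dorsal and ventral striatum and 1 in the interaction, beside 12.3%, 40.1% and 1.95% of all genes, and 3 in dorsal D1 against D2 with name code as a covariate, beside 15%; D1 dorsal striatum has no OdP library, and D2 dorsal striatum has 8. Leaving out 1 library gave 5 to 7, 5 to 7, 7 to 8, 5 to 6, 15 to 17, 18 to 19 and 2 to 4 called members in the 7 tests, in the order of the comparisons above with the interaction last.

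Some uncalled differences changed sign. Axin2 became -0.093 and -0.13 in D1 against D2 dorsal and ventral striatum and -0.14 in D2 dorsal against ventral with the share covariate, -0.0285 in the latter within OdP and -0.0129 to 0.1433 without single libraries, and 0.0057 and 0.0499 in D1 dorsal against ventral with median-ratio scaling and edgeR. Dkk3 in D2 dorsal against ventral became 0.0237, 0.10, 0.17, 0.21 and 0.0029 on scaling to reads in genes, median-ratio scaling, edgeR, within EM and with the share covariate, and -0.1353 to 0.106 without single libraries (above 0 in 12 of 30 fits). Tcf7l2 in that comparison, -0.50 over all libraries, became 0.22 within OdP. Wnt8b in D2 could not be fitted within EM or without the libraries that stand apart, where it missed the minimum, and the 16 fits without 1 library in which it reached it gave 2.26 to 2.40. The cause of these changes was not tested. No paired analysis was run. The groups share at most 1 library name (a D1 dorsal and a D1 ventral library, 1 of them with a suffix), and no label says that consecutive numbers mark the same mice. Any sharing of mice between groups was therefore left out of the fits. Depth limits the 26 members below 1 CPM.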
